A study of Mus musculus with 12 samples.

Results

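Transcripts of 10 receptors and ligands of the EGFR, MET and TAM families were followed through MC38 tumors treated with PB-020, an inhibitor of IGF-1R, with an antibody against PD-1, or with both. The genes were chosen by name, as growth factor receptors, and their ligands, that can take over signaling when IGF-1R is blocked. They comprised the receptors Egfr, Erbb2, Erbb3, Met, Axl and Mertk and the ligands Areg, Hbegf, Hgf and Gas6, which make 10 of the 18211 genes measured. Of these, 9 passed the filter on low counts, and Areg did not. The choice of genes was made with earlier results of these data known.

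The tumors were grown under the skin of C57BL/6 female mice aged 5 weeks from MC38, 1 mouse colorectal adenocarcinoma line, so tumor and host transcripts were read on the same genome. Mice were divided on day 7 after the cells were injected into 4 groups, each with 3 tumors sequenced. The CK group received the vehicle, the PB-020 group 50 mg/kg per day by mouth, the anti-PD-1 group 200 μg of antibody per mouse on days 9, 12, 15 and 18, and the combination group both. The tumors were labelled as separate samples, and how much of their spread was technical is not known. All values come from whole tumors, in which fewer cells of a type and less RNA per cell cannot be told apart.

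These receptors are tyrosine kinases that share much of their intracellular wiring with IGF-1R. A bound ligand brings receptors together, the receptors phosphorylate each other, and adaptors then engage the PI3K/AKT and RAS/MAPK pathways. EGFR is activated by ligands such as amphiregulin and HB-EGF, which are made as membrane proteins and cut free by ADAM proteases. ERBB2 has no ligand of its own, and ERBB3, a partner with a weak kinase that binds neuregulins, is a strong docking site for PI3K. MET is the receptor of hepatocyte growth factor, which stromal cells secrete and proteases activate. AXL and MERTK belong with TYRO3 to the TAM receptors, which bind GAS6 and protein S, help phagocytes clear dying cells and dampen innate immune responses.

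Expected counts per library summed to between 16545394 and 17217035. A pair of tumors stood apart. In CK tumor 3 the summed neutrophil markers (8 genes, none at 0 in all tumors) reached 417.6 FPKM, against 8.30 to 39.1 in the other 11 tumors, and without it Hbegf was still the 1 member called against CK in both antibody groups. The anti-PD-1 tumor 1 held the highest value of the 12 tumors in 21.4% of the 13563 genes tested and in 3 of the 10 genes described here, Egfr, Hbegf and Gas6. Its summed skeletal muscle markers (10 genes, none at 0) reached 656 FPKM, against 12.9 to 72.0 in the other anti-PD-1 tumors, 26.5 to 71.6 in CK, 46.3 to 65.6 in PB-020 and 18.5 to 29.8 in the combination group. Its T cell and macrophage markers were also the highest, at 87.2 and 3269 FPKM. Of 9 epithelial markers, 8 lay under 1 FPKM in all tumors, although the line is labelled as an adenocarcinoma, and Cdh1 was the exception. The part of these cells in the values below was not tested.

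The promoters of Egfr, Mertk and Gas6 are shown because these genes were all at least 2.14 times as high in anti-PD-1 tumor 1 as in the mean of the other anti-PD-1 tumors, and their changes under anti-PD-1 depended on it. Each sequence is the 250 bases before the start of the gene in RefSeq, on build GRCm38.p6, read 5′ to 3′ on the strand of the gene. Capitals mark GGGCGG, the core of a GC box, or its reverse complement CCGCCC, searched on both strands. The windows lie at chr11:16751953-16752202 on the plus strand for Egfr, at chr2:128698665-128698914 on the plus strand for Mertk and at chr8:13494536-13494785 on the minus strand for Gas6.
Egfr: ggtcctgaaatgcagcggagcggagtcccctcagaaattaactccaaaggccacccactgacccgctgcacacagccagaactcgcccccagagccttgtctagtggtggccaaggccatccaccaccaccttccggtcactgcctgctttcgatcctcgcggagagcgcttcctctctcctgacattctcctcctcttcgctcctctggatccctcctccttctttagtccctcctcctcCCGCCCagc
Mertk: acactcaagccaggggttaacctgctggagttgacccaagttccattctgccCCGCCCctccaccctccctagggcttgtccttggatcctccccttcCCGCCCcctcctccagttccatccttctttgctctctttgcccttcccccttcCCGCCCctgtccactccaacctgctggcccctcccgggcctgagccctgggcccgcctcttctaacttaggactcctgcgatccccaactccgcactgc
Gas6: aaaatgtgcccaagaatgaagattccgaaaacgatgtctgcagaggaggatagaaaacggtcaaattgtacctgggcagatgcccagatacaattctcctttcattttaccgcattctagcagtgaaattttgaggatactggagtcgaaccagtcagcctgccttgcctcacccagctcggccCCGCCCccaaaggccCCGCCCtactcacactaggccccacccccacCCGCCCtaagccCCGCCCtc
The motif occurred 1 time in the Egfr window, 3 times in that of Mertk and 4 times in that of Gas6. Among the other members with a window, it also occurred in Met (3 times), Axl (1 time) and Areg (1 time), and not in Erbb2 or Hgf. Of 32851 promoter windows of the same length, 32.7% held it. The GC content was 60.8% for Egfr, 63.6% for Mertk and 54.8% for Gas6, against a median of 52.4% over all windows. These matches describe the letters and show no binding.

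Axl was by far the most abundant of these transcripts. In FPKM, which corrects for gene length and library total, its mean in CK was 342.74 ± 20.7 (SD, n = 3), which ranked 206 of 18211 genes. Axl made up 97.2% of the summed FPKM of the 3 TAM receptors over the 12 tumors, with a range of 96.5% to 97.5%. Its level was 26.7 to 34.8 times that of Igf1r, the target of PB-020. Erbb2 held the corresponding place among the ERBB receptors, with 81.9% of the sum of Egfr, Erbb2 and Erbb3, and a range of 75.1% to 85.5%. Mean levels in CK were similar for Gas6 (9.03 FPKM), Met (8.89) and Erbb2 (8.60), followed by Hbegf (4.78), Mertk (4.76), Erbb3 (1.08), Egfr (0.993), Hgf (0.943) and Areg (0.0933).

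**Figure D1:**
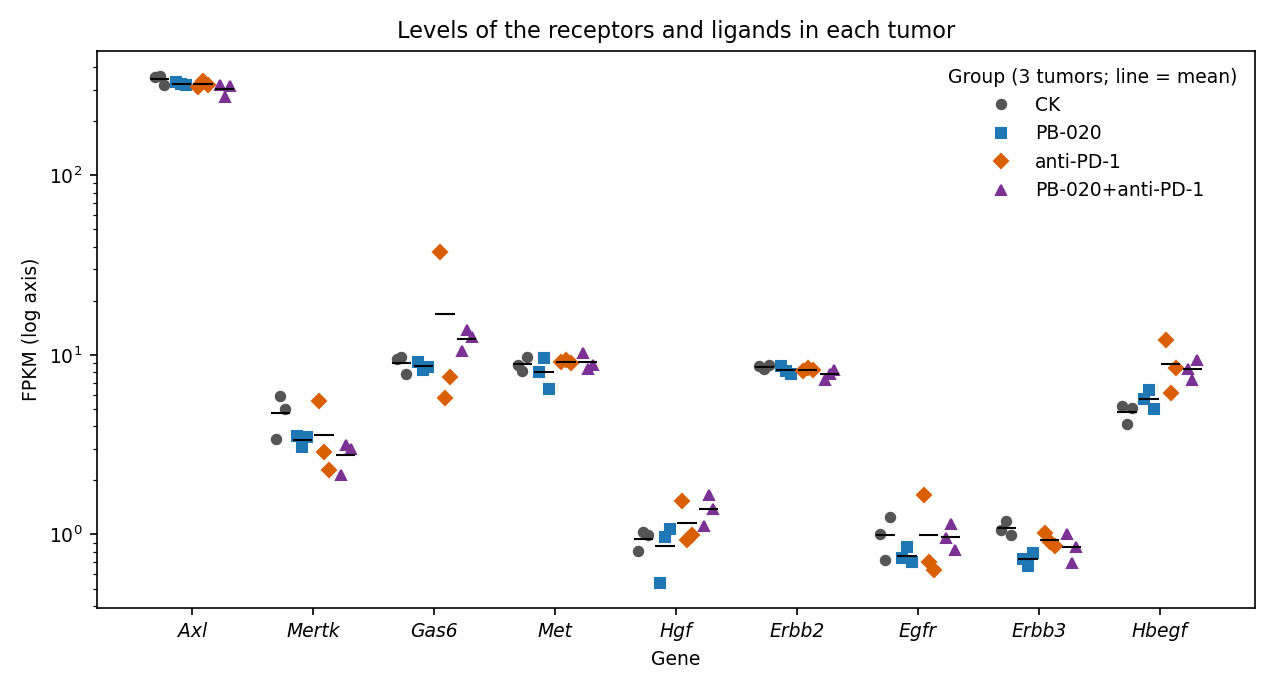
FPKM of 9 genes in the 12 tumors on a log axis, with 1 point per tumor, colored by group, and a line at the mean of each group. Axl lies between 274.06 and 356.59 FPKM in all tumors, the other genes lie below 40, and 1 anti-PD-1 tumor stands above the rest for Gas6 at 37.58 FPKM. Areg, which was at 0 in 1 tumor, is not drawn.

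Each comparison was tested across all genes with edgeR's quasi-likelihood test, and a gene was called at a Benjamini-Hochberg adjusted p under 0.05. Among the 9 genes tested, Hbegf rose against CK in the anti-PD-1 group and in the combination group, and no other member was called. Over all 13563 genes, anti-PD-1 was called in 8.26%, of which 4.18% of genes were higher and 4.08% lower. The combination was called in 17.9%, with 8.35% higher and 9.6% lower, so 1 call among 9 genes is near the share of all genes called. At an unadjusted p under 0.05, anti-PD-1 had 1 member, Hbegf, beside 26.6% of genes, and the combination had 2, Hbegf and Mertk, beside 33.9%. The same members passed when a 1.5-fold change was also required, beside 4.5% of genes raised and 2.68% lowered by anti-PD-1, and 4.95% raised and 3.57% lowered by the combination. PB-020 alone gave 0 calls among the members and 0% of genes, with 1 member, Erbb3, and 5.46% of all genes at an unadjusted p under 0.05. These 3 comparisons share the CK tumors. The median log2 change of the 9 genes was -0.12 for PB-020, -0.04 for anti-PD-1 and 0.03 for the combination, beside medians of -0.0038, 0.00047 and -0.0026 over all genes.

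The combination was also set against each single treatment. Against PB-020 alone, 0 of the 9 genes and 3.35% of all genes were called (1.25% raised, 2.11% lowered), with Hbegf and Hgf, and 22.4% of genes, at an unadjusted p under 0.05. Relative to anti-PD-1 alone, it gave 0 calls among the members and 0% of genes in edgeR, with 0 members and 7.26% of all genes at an unadjusted p under 0.05. The interaction of both treatments was called for 0 members and 0% of genes, with 0 members and 2.29% of genes at an unadjusted p under 0.05, and the interval of the Hbegf interaction, for example, was -0.98 to 0.25 on the log2 scale. The effect of anti-PD-1 averaged over both PB-020 states was called for 1 of the 9 genes, Hbegf, beside 24.2% of all genes (11.8% raised, 12.3% lowered), and for Hbegf and Hgf beside 37.9% of genes at an unadjusted p under 0.05. That of PB-020 was called for 0 members and 0% of genes, with 1 member, Erbb3, and 10.9% of genes at an unadjusted p under 0.05. Wherever edgeR gave 0 calls among the members, DESeq2 and limma on log FPKM or log TPM also gave 0.

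Groups of 3 tumors that did not overlap were counted on FPKM. The FPKM of a library summed to between 522089 and 602751, and counts on values scaled to equal sums could differ. The combination had the most such members, with Hbegf, Hgf and Gas6 above CK in every tumor (17.9% of all genes) and Erbb2, Axl and Mertk below it (22.4%). With PB-020 alone 0 members lay above CK (6.19% of genes) and 1, Erbb3, below (8.74%). With anti-PD-1 alone Hbegf lay above CK (11.8%) and 0 members below (17.2%). Against PB-020, the combination was higher in Hbegf, Hgf and Gas6 (14.5%) and lower in Axl (15.7%). It overlapped anti-PD-1 in every member, where 5.12% of all genes lay above and 4.9% below.

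**Figure D2:**
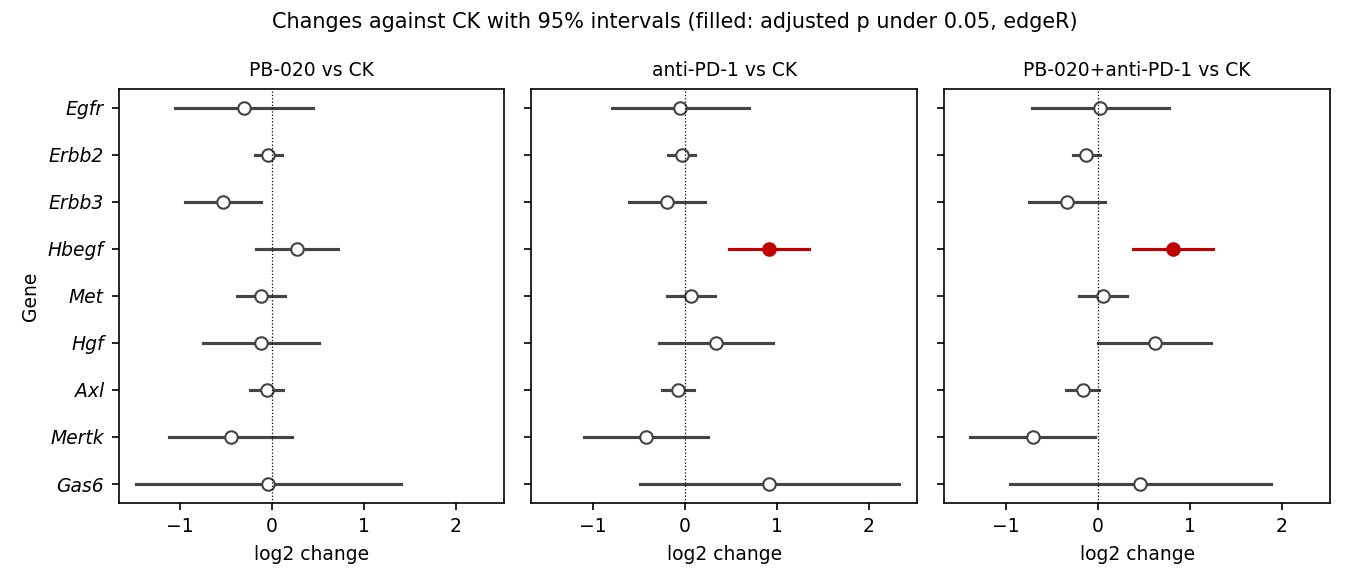
Log2 changes of the 9 tested genes against CK in the 3 treated groups (horizontal axes), with 95% intervals. Filled points mark an adjusted p under 0.05 in edgeR. Hbegf is called in the anti-PD-1 group at 0.91 and in the combination group at 0.82, and the interval of Gas6 is the widest in each panel.

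Among the ERBB receptors, none changed past the threshold. Egfr (gene 13649, chromosome 11, 16752203 to 16913907), the receptor of the EGF family, measured 1.01, 0.72 and 1.25 FPKM in the CK tumors and 0.74, 0.85 and 0.70 in the PB-020 tumors. In the anti-PD-1 tumors it measured 1.66, 0.70 and 0.63, and in the combination tumors 0.95, 1.14 and 0.82. All groups overlapped CK, and the anti-PD-1 group held both the highest and the lowest value of the series. The log2 change against CK was -0.30 for PB-020, -0.05 for anti-PD-1 and 0.03 for the combination, each with a standard error of 0.34 to 0.35.

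Erbb2 (gene 13866, chromosome 11, 98412484 to 98437716), the preferred partner of the other ERBB receptors, was the steadiest member. Its CK tumors measured 8.63, 8.35 and 8.81 FPKM and its PB-020 tumors 8.67, 8.14 and 7.87. The anti-PD-1 tumors measured 8.10, 8.44 and 8.28, and the combination tumors 7.29, 7.78 and 8.27, all below CK. The highest tumor was 1.21 times the lowest. For the combination the log2 change was -0.13 (SE 0.070, adjusted p = 0.221, edgeR), with a 95% interval of 0.826 to 1.02-fold.

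Erbb3 (gene 13867, chromosome 10, 128567523 to 128589635), which docks PI3K, was the 1 member whose PB-020 tumors did not overlap CK. It measured 1.06, 1.19 and 0.99 FPKM in CK against 0.73, 0.67 and 0.79 with PB-020, all lower. Anti-PD-1 tumors held 1.02, 0.91 and 0.86, and combination tumors 1.0, 0.69 and 0.85, which overlapped CK. Its log2 change with PB-020 was -0.54 (SE 0.19, 95% interval -0.95 to -0.12, unadjusted p = 0.0153), which did not pass adjustment over all genes (adjusted p = 0.874, edgeR). Averaged over both anti-PD-1 states the PB-020 effect was -0.34 (SE 0.14, adjusted p = 0.396, edgeR), and the counts behind it were 44 to 78 per tumor. The share of Erbb2 in the sum of Egfr, Erbb2 and Erbb3 was 84.1% to 85.5% in PB-020 tumors and 79.7% to 81.4% in CK, a description with no test. Erbb4, the remaining family receptor, was at 0 counts in 11 of 12 tumors and at 1 count in the other.

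Of the ligands of EGFR, Hbegf rose with anti-PD-1 and Areg was barely detected. Hbegf (gene 15200, chromosome 18) encodes HB-EGF, which binds EGFR and ERBB4 and is made by macrophages, T cells and epithelial cells among others. It measured 5.16, 4.10 and 5.07 FPKM in CK and 5.66, 6.38 and 5.01 in PB-020 tumors. In anti-PD-1 tumors it measured 12.08, 6.17 and 8.42, and in combination tumors 8.38, 7.21 and 9.37. Every tumor given the antibody, alone or with PB-020, lay above every CK tumor, while PB-020 alone overlapped CK.

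Mean levels of Hbegf were 4.78 ± 0.588 FPKM in CK (SD, n = 3), 8.89 ± 2.98 with anti-PD-1 and 8.32 ± 1.08 with the combination. The log2 changes were 0.91 (SE 0.20, 95% interval 0.47 to 1.35, adjusted p = 0.0206) and 0.82 (SE 0.20, 0.38 to 1.26, adjusted p = 0.0177, edgeR). With PB-020 alone the change was 0.27 (SE 0.20, adjusted p = 0.899, edgeR). Ordered by mean, anti-PD-1 and the combination did not differ beyond their spread (-0.10, 95% interval 0.696 to 1.26-fold), nor did PB-020 and CK. Between these pairs, the combination exceeded PB-020 without overlap by 0.55 (SE 0.20), which missed the threshold (adjusted p = 0.134, edgeR).

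The 2 calls of Hbegf against CK each depended on single tumors. The anti-PD-1 call was lost without CK tumor 2 (adjusted p = 0.0962) and without anti-PD-1 tumor 3 (0.0624), and held without anti-PD-1 tumor 1 (0.64, adjusted p = 0.0376). The combination call was lost without CK tumor 2 (0.0825), combination tumor 1 (0.0583) or combination tumor 3 (0.0529). The anti-PD-1 effect averaged over both PB-020 states, which uses all tumors, was 0.73 (SE 0.14, adjusted p = 0.0043, edgeR) and was called with each of the 12 tumors left out in turn.

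Marker sums of several cell types differed between the same groups. T cell markers (13 genes tested, none at 0) lay at 15.9 to 21.8 FPKM in CK and 22.7 to 28.8 in PB-020. They lay at 36.3 to 87.2 in anti-PD-1 and 42.0 to 68.1 in combination tumors. Of the 13, 10 rose with anti-PD-1 and 11 with the combination, beside 4.18% and 8.35% of all genes. Unlike Hbegf, their sum lay above CK in every PB-020 tumor too. Combination tumor 2 had the highest sum and the lowest Hbegf of its group, while anti-PD-1 tumor 1 had the highest of both in the series. Keratinocyte markers (10 genes, none at 0 in all tumors) summed to 83.3 to 123.4 FPKM in CK, 111.2 to 155.7 in PB-020, 136.3 to 189.7 in anti-PD-1 and 171.8 to 225.3 in combination tumors. As with Hbegf, every antibody tumor lay above CK and PB-020 overlapped it. Here too combination tumor 2 had the highest sum and the lowest Hbegf of its group. Among the anti-PD-1 tumors, tumor 3 had the highest keratinocyte sum and tumor 1 the highest Hbegf. Of the 6 tested, Krt14, a keratin of basal epithelium, rose with anti-PD-1 (0.85, adjusted p = 0.0182) and with the combination (1.04, adjusted p = 0.0045, edgeR). The rest were not called with anti-PD-1, with log2 changes of -2.21 for Krt5, -1.57 for Krt1 and -1.59 for Krtdap (SE 2.56 to 2.85). Those of Krt10 and Sbsn were 0.19 and 0.24. With the combination, the log2 changes of these other markers against CK were all upward, and no adjusted p is given for them here. Macrophage markers (13 genes, none at 0) lay at 1734 to 2163 FPKM in CK, 1826 to 2170 in PB-020, 1702 to 3269 in anti-PD-1 and 2234 to 2616 in combination tumors. Their sum was above CK in every combination tumor and overlapped CK in the other groups. Called as raised were 0 of 13 with anti-PD-1 and 0 of 13 with the combination, beside 4.18% and 8.35% of all genes. The part of these cells in the rise of Hbegf was not tested.

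Areg (gene 11839, chromosome 5, 91139599 to 91148432) encodes amphiregulin, an EGFR ligand of epithelial and regulatory T cells. It held 0, 3 and 2 counts in the CK tumors, 1, 3 and 4 in PB-020, 4, 2 and 6 in anti-PD-1 and 2, 5 and 2 in the combination. These counts are at or near the floor of 3 counts, so a difference between groups was not detectable at this depth and no fold is given. Tgfa, another EGFR ligand, held 3 to 7 counts in CK and 4 to 21 in the anti-PD-1 group and was not called, with a log2 change of 1.51 in the combination group (SE 0.57, adjusted p = 0.0819, edgeR).

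**Figure D3:**
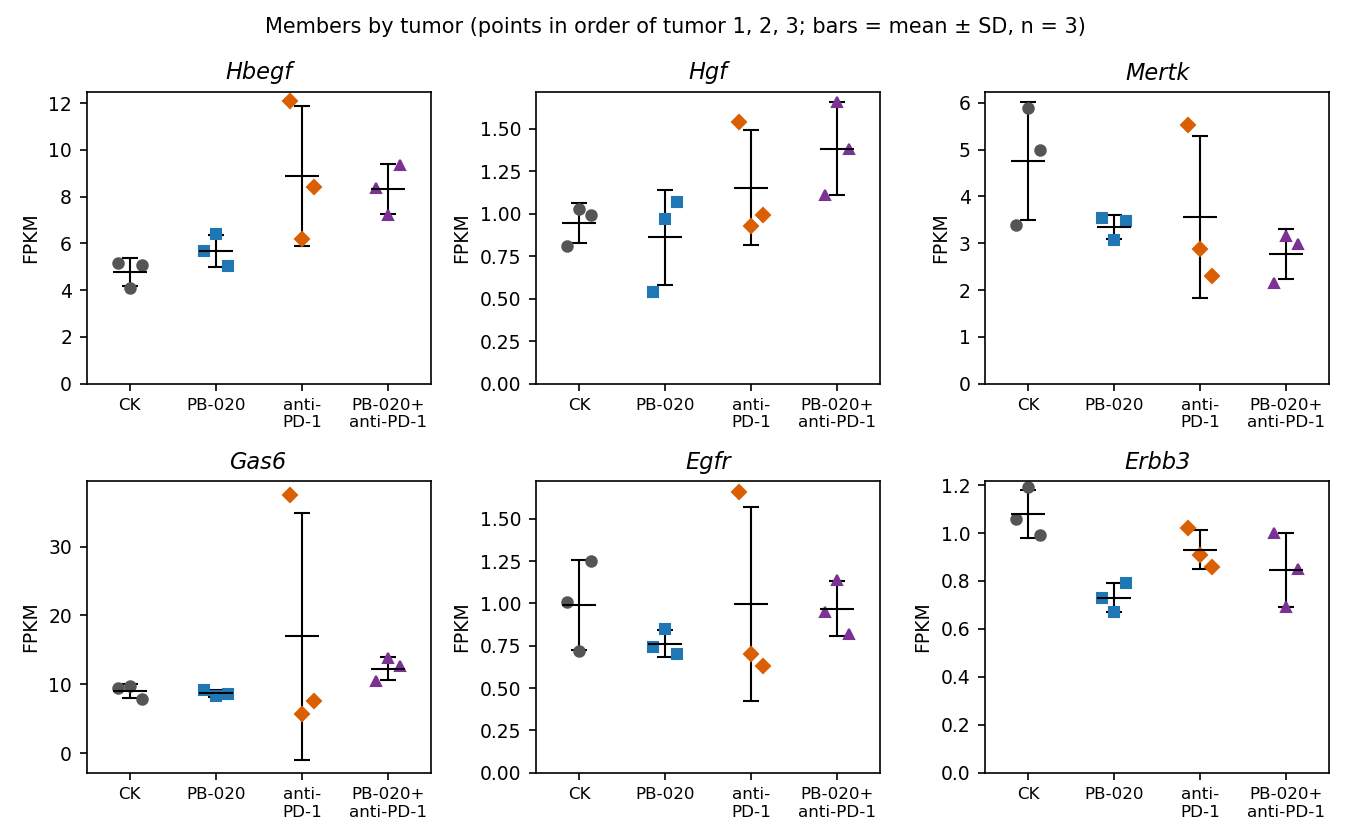
FPKM of 6 genes in each tumor, with points in the order of tumors 1, 2 and 3 and bars for the mean ± SD (n = 3) of each group. Hbegf lies between 4.10 and 5.16 in CK and between 6.17 and 12.08 in the antibody groups. The wide bars of Gas6, Egfr and Mertk in the anti-PD-1 group come with tumor 1, and the lower bar of Gas6 extends below 0, which FPKM cannot reach.

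Neither Met nor Hgf passed the threshold. Met (gene 17295, chromosome 6, 17463349 to 17573980), the receptor of hepatocyte growth factor, measured 8.80, 8.17 and 9.69 FPKM in CK and 7.98, 9.60 and 6.48 with PB-020. It measured 9.07, 9.41 and 9.0 with anti-PD-1 and 10.29, 8.38 and 8.78 with the combination. Every group overlapped CK. The 95% intervals of the fold against CK were 0.765 to 1.10 for PB-020, 0.872 to 1.25 for anti-PD-1 and 0.867 to 1.25 for the combination.

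Hgf (gene 15234, chromosome 5, 16553495 to 16619439), the ligand of Met, was low, with 23 to 73 counts per tumor. It measured 0.81, 1.03 and 0.99 FPKM in CK, 0.54, 0.97 and 1.07 in PB-020 and 1.54, 0.93 and 0.99 in anti-PD-1 tumors. Combination tumors measured 1.11, 1.66 and 1.38, above all CK and all PB-020 tumors. Its log2 change with the combination was 0.62 against CK (SE 0.29, unadjusted p = 0.0502, adjusted p = 0.148) and 0.74 against PB-020 (SE 0.29, adjusted p = 0.152, edgeR). The anti-PD-1 effect averaged over both PB-020 states was 0.54 (SE 0.20, adjusted p = 0.0706, edgeR). Fibroblasts are a known source of Hgf. Of 11 fibroblast markers, 4 fell with anti-PD-1, beside 4.08% of all genes lowered. With the combination 1 rose and 4 fell, beside 8.35% of all genes raised and 9.6% lowered. The markers not called with anti-PD-1 all lay above 0, with log2 changes from 0.37 (Col1a2) to 1.18 (Lum). The sum of the fibroblast markers was 1913 to 2562 FPKM in CK, 1799 to 1881 in PB-020, 934 to 1837 in anti-PD-1 and 1005 to 1411 in the combination group. No marker was at 0, and the part of fibroblasts in the level of Hgf was not tested.

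Of the TAM genes, none was called. Axl (gene 26362, chromosome 7, 25756500 to 25788924), a receptor of GAS6 found on mesenchymal tumor cells, fibroblasts and some myeloid cells, measured 352.69, 356.59 and 318.94 FPKM in CK and 331.55, 321.41 and 318.33 with PB-020. It measured 310.40, 332.91 and 318.90 with anti-PD-1 and 316.73, 274.06 and 314.55 with the combination. The combination tumors all lay below CK, and both single treatments overlapped it. The log2 change was -0.17 (SE 0.083, adjusted p = 0.175, edgeR), with a 95% interval of 0.789 to 1.01-fold. For PB-020 alone the interval was 0.849 to 1.09-fold and for anti-PD-1 alone 0.838 to 1.07-fold.

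Mertk (gene 17289, chromosome 2, 128698915 to 128803162), a clearance receptor typical of macrophages, measured 3.40, 5.89 and 5.0 FPKM in CK and 3.53, 3.06 and 3.47 in PB-020 tumors. Anti-PD-1 tumors measured 5.53, 2.87 and 2.29, and combination tumors 2.15, 3.15 and 2.98. All combination tumors were below CK, while both single treatments overlapped it. The log2 change with the combination was -0.71 (SE 0.31, 95% interval -1.39 to -0.03, unadjusted p = 0.0425), which missed the threshold over all genes (adjusted p = 0.132, edgeR). The means were 4.76 ± 1.26 FPKM in CK and 2.76 ± 0.535 in the combination (SD, n = 3). Of 13 macrophage markers, 0 were lowered with anti-PD-1 and 1 with the combination, beside 4.08% and 9.6% of all genes. The part of macrophages in the level of Mertk was not tested.

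Gas6 (gene 14456, chromosome 8, 13465374 to 13494535), the ligand of the TAM receptors, measured 9.48, 9.78 and 7.82 FPKM in CK and 9.17, 8.23 and 8.57 with PB-020. Anti-PD-1 tumors measured 37.58, 5.72 and 7.55, and combination tumors 10.44, 13.80 and 12.61. The combination tumors exceeded every CK and every PB-020 tumor, while the anti-PD-1 tumors held the highest and the lowest values of the series. The log2 change with the combination was 0.46 against CK (SE 0.62, adjusted p = 0.640, edgeR). Its standard error rests on the spread shared by all groups, to which anti-PD-1 tumor 1 adds. The ratio of Axl to Gas6 was 36.5 to 40.8 in CK, 19.9 to 30.3 in the combination and 8.26 to 58.2 in anti-PD-1 tumors.

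Without anti-PD-1 tumor 1, several of these values moved. Against CK, the anti-PD-1 change of Gas6 went from 0.92 (SE 0.62, adjusted p = 0.379) to -0.42 (SE 0.15, adjusted p = 0.114, edgeR), which turned its direction. Mertk went from -0.42 (adjusted p = 0.400) to -0.88 (SE 0.22, adjusted p = 0.0413) and was then called. That comparison called 625 genes over all, against 1120 with all tumors. Egfr went from -0.05 to -0.70 (SE 0.23, adjusted p = 0.0961), and the combination then differed from anti-PD-1 in Egfr by 0.72 (adjusted p = 0.526). In Gas6 the combination against anti-PD-1 went from -0.46 (SE 0.61, adjusted p = 0.908) to 0.88 (SE 0.15, adjusted p = 0.0692, edgeR), which also turned its direction and missed the threshold. The remaining tumors in each case were the 2 with the lower values.

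For the combination against CK, the log2 changes hardly moved without that tumor, and the errors of Egfr, Gas6, Mertk and Hbegf shrank most. Those of Erbb2 and Met grew slightly. Mertk was then called at -0.71 (SE 0.19, adjusted p = 0.0178) and Gas6 at 0.46 (SE 0.13, adjusted p = 0.0176, edgeR). Over all genes this fit called 3344, against 2434 with all tumors. Against PB-020, Hbegf was called at 0.55 (adjusted p = 0.0277) and Gas6 at 0.50 (adjusted p = 0.0258). In that comparison 1269 genes were called over all, against 455 with all tumors. Axl, Erbb2, Erbb3 and Met stayed within 0.1 of their values with all tumors in the anti-PD-1 comparison.

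**Figure D4:**
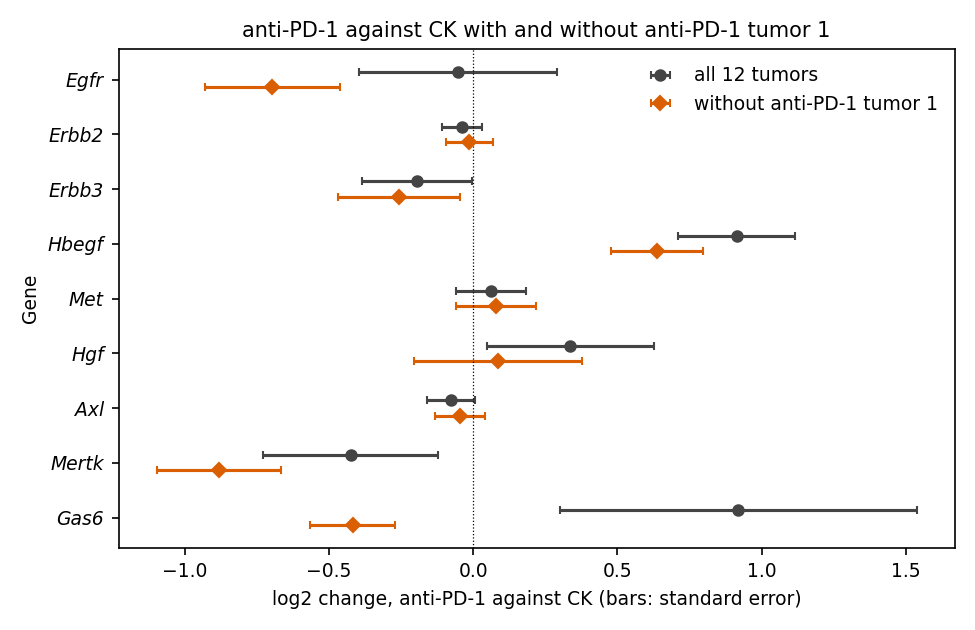
Log2 changes of the 9 genes in the anti-PD-1 group against CK (horizontal axis), with standard errors, in the fit of all 12 tumors and in that without anti-PD-1 tumor 1. Gas6 moves from 0.92 to -0.42, Egfr from -0.05 to -0.70 and Mertk from -0.42 to -0.88, while Hbegf stays above 0 at 0.64.

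Related genes were counted in lists of the same pathways, and with PB-020 alone edgeR called 0 genes of any list, with 0 to 2 genes per list at an unadjusted p under 0.05. The counts of every list below stand beside the shares of all genes called. These were 4.18% raised and 4.08% lowered by anti-PD-1, and 8.35% raised and 9.6% lowered by the combination. Of 6 other ERBB family genes tested, Nrg1 rose in both antibody groups. It encodes neuregulin 1, a ligand of ERBB3 and ERBB4. Its means were 4.22 ± 0.429 FPKM in CK, 6.99 ± 1.17 with anti-PD-1 and 6.48 ± 0.896 with the combination (SD, n = 3). The log2 changes were 0.83 (SE 0.15, adjusted p = 0.0108) and 0.74 (SE 0.15, adjusted p = 0.0085, edgeR). The anti-PD-1 call was lost without CK tumor 2 (adjusted p = 0.0573). Of 7 proteases and helpers that release EGF family ligands, the combination lowered 2, Adam9 (log2 change -0.26, adjusted p = 0.0100) and Rhbdf1 (-0.33, adjusted p = 0.0234, edgeR).

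Of 9 tested genes around MET and its relative RON, Plat fell in both antibody groups and Spint1 rose with the combination. Plat, the tissue plasminogen activator, which can also activate HGF, went from 37.2 FPKM in CK to 25.5 and 23.2. Its log2 changes were -0.52 (SE 0.086, adjusted p = 0.0068) and -0.66 (SE 0.086, adjusted p = 0.0015, edgeR). Spint1, an inhibitor of HGF-activating proteases, rose by 0.57 (SE 0.18, adjusted p = 0.0438, edgeR). Of the 3 other TAM genes tested, Pros1, which encodes protein S, fell by 0.31 on the log2 scale with anti-PD-1 (adjusted p = 0.0194) and by 0.33 with the combination (adjusted p = 0.0076, edgeR). Tyro3, the remaining TAM receptor, was not called, with log2 changes of 0.03 for PB-020, 0.14 for anti-PD-1 and 0.07 for their combination.

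Of 24 adaptors and effectors shared by these receptors, anti-PD-1 raised 1 and lowered 1, and the combination raised 1 and lowered 5. Over all genes anti-PD-1 raised 4.18% and lowered 4.08%, and the combination raised 8.35% and lowered 9.6%. Map2k1, which encodes the kinase MEK1, rose by 0.42 with anti-PD-1 (adjusted p = 0.0100) and by 0.38 with the combination (adjusted p = 0.0075, edgeR). Gab1, the adaptor that links MET and EGFR to PI3K, changed by -0.44 (adjusted p = 0.0234) and -0.57 (adjusted p = 0.0045). The combination also lowered Gab2, Mapk3 and Plcg1, with log2 changes of -0.33, -0.25 and -0.24. Of 18 feedback inhibitors, the combination raised Socs1 and lowered 5, namely Lrig1 (-0.72), Lrig3 (-0.47), Spry2 (-0.60), Spry4 (-0.55) and Errfi1 (-0.28). As background, LRIG1 promotes the turnover of ERBB receptors and MET, Sprouty proteins restrain RAS/MAPK signaling and ERRFI1 blocks the EGFR kinase. Over all genes the combination raised 8.35% and lowered 9.6%, and of these 6 calls only that of Lrig3 held with each tumor left out in turn. Anti-PD-1 alone raised Socs1 and Dusp4 and lowered Lrig3. Errfi1 lies outside the rule for naming genes and was named after its values were seen.

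Of 6 genes of the IGF1R axis, Irs1, the adaptor of IGF-1R and the insulin receptor, fell in both antibody groups, with log2 changes of -0.39 (adjusted p = 0.0100) and -0.52 (adjusted p = 0.0018, edgeR). Igf1r itself was not called, with changes of -0.06, -0.02 and -0.13 in the 3 treated groups. With the combination, Nrg1, Adam9, Plat, Pros1, Gab1, Map2k1, Lrig3 and Irs1 were called with each tumor left out in turn. The other 11 called genes of these lists lost their call without CK tumor 2 (adjusted p = 0.0610 to 0.169), combination tumor 1 (0.0579 to 0.141) or combination tumor 2 (0.0616 to 0.166), and some without other tumors. With anti-PD-1, Plat and Map2k1 kept their calls, and Nrg1 and Irs1 lost theirs without CK tumor 2 alone. Pros1, Gab1, Lrig3, Socs1 and Dusp4 lost theirs without 3 to 11 of the tumors, CK tumor 2 and anti-PD-1 tumor 3 among them, with adjusted p up to 0.170.

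**Figure D5:**
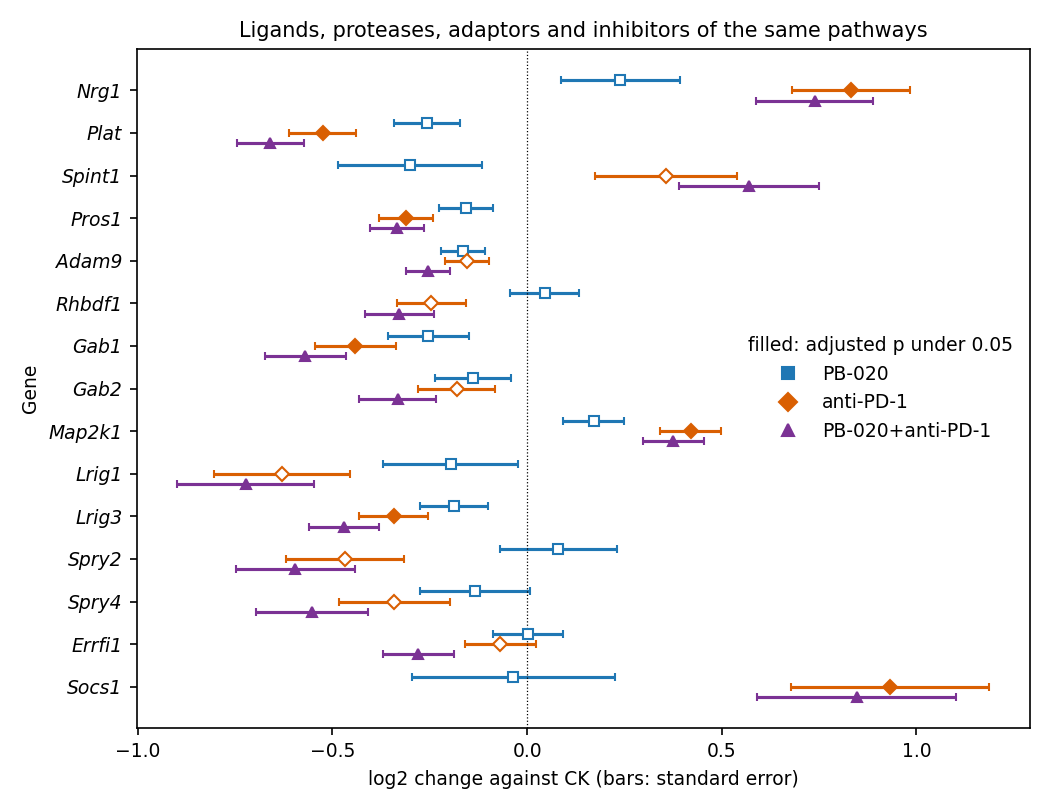
Log2 changes against CK (horizontal axis) with standard errors for 15 genes of the same pathways in the 3 treated groups, filled where the adjusted p is under 0.05 in edgeR. No PB-020 point is filled. Nrg1 and Map2k1 lie above 0 and Plat, Pros1, Gab1 and Lrig3 below 0 in both antibody groups.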

How the data were processed

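RNA from 12 MC38 tumors, 3 per group, was sequenced as paired reads. Per the study's methods, the authors aligned the reads with Bowtie2 at default settings against a reference given as mm10 or hg19 and quantified genes with RSEM. The submitters' processing notes also name HISAT and GRCm38.p6. Tool versions, annotation and strandedness are not given in the sources used here. Reads of overlapping genes could therefore be shared: Egfr, Met, Hgf and Hbegf each overlap a noncoding RNA, Erbb2 overlaps Mien1, Erbb3 a microRNA and Gas6 Tmem255b, and Areg, Axl and Mertk overlap none.

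Deposited values included expected counts from RSEM, estimates without normalization, of which 91.0% were whole (tolerance 1e-09). The deposited FPKM values, by the authors, are per gene length and library total, and their TPM values, also deposited, have the same sum in each library. Columns of the authors' group averages were not used. Gene numbers matched RefSeq genes of GRCm38.p6 for 18091 of 18211 genes (99.3%), and promoter windows came from RefSeq for 8 of the 10 members.

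Expected counts were rounded, filtered with filterByExpr (minimum count 10), which left 13563 genes, scaled by TMM and tested with edgeR 4.0.16 in R 4.3.3, with a quasi-likelihood fit of 4 group means over all libraries. Tests were two-sided and adjusted by Benjamini-Hochberg over all genes tested. This test replaced the per-gene test on FPKM of the methods, which was kept as an alternative. FPKM values are given per tumor. The computation was tested on simulated data. Counts per library summed to 16545394 to 17217035. The floor of 3 counts was a fixed setting, not computed from these sums, and it covers counting error only.

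Other alternatives were DESeq2 1.42.0, limma 3.58.1 on log2(FPKM + 1), log2(FPKM + 0.1) and log2(TPM + 1), no filter and a filter at 1 CPM, library size alone, DESeq2 size factors, a fit of the compared groups alone, a block for the replicate number and each library left out. Named were all members and, of each other list, the called genes against CK, at most the 6 with the smallest p, plus Igf1r, Tyro3, Pros1, Erbb4 and Tgfa. Of the called genes, 1 is counted in its list but not reported here by name. The members and lists were chosen with earlier results of these data known.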

Additional observations from a re-analysis of the deposited data

How the results depend on the processing

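Under the alternatives run, no called change reversed direction. With only the groups compared in the fit, 0 members were called for anti-PD-1 against CK (3 genes over all, against 1120 with all libraries), 2 for the combination against CK (Hbegf and Gas6) and 2 for the combination against PB-020 (Hbegf and Gas6). With limma on log2(TPM + 1), which was chosen after seeing the data, 0 members were called for anti-PD-1 against CK, where Hbegf had an adjusted p of 0.0533. With each library left out, the members called ranged from 0 to 2 for anti-PD-1 against CK, from 0 to 3 for the combination against CK, from 0 to 2 for the combination against PB-020 and from 1 to 2 for the averaged anti-PD-1 effect. Over all genes, anti-PD-1 against CK gave 137 calls without CK tumor 2 and 238 without anti-PD-1 tumor 3. Past 1.5-fold with an unadjusted p under 0.05, edgeR counted 1 member for anti-PD-1 (Hbegf) and 2 for the combination (Hbegf and Mertk), and the methods' test on FPKM 0 and 1 (Hbegf). The cause of these shifts was not tested. Same-numbered tumors did not deviate together (18 pairs, correlation -0.21 to 0.29, 2 pairs over 0.1). With 3 tumors per group, these correlations showed no pairing by number but cannot exclude one. With the replicate block, Hbegf was still called at 0.89 (adjusted p = 0.0228) and 0.82 (adjusted p = 0.0170), with 870 genes called for anti-PD-1 and 2010 for the combination. With the block the calls of Spint1, Gab2, Plcg1, Mapk3 and Errfi1 in the combination and of Socs1 with anti-PD-1 were lost. Of 10 alternatives that kept all libraries of the groups compared, 7 lost the anti-PD-1 calls of Socs1 (adjusted p up to 0.135) and Dusp4 (up to 0.0892), 2 those of Pros1, Gab1, Lrig3 and Irs1, and 1 those of Nrg1, Plat and Map2k1. For the combination, 5 lost the call of Socs1, 4 those of Spint1 and Gab2, 3 that of Errfi1 and 2 those of Plcg1 and Mapk3, and 1 that of Map2k1. Depth limits Areg, Erbb4 and Tgfa, among other genes of few counts.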
